A study of Mus musculus with 43 samples.

Results

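Myc is a basic helix-loop-helix transcription factor that pairs with Max and binds E-box DNA, and it is known as a broad activator of ribosome production, nucleotide synthesis and other growth genes. In reprogramming of fibroblasts to pluripotency it is the fourth of the induced factors, added to Oct4 (encoded by Pou5f1), Sox2 and Klf4, together abbreviated OSK. The comparison described here sets 1 library labelled OSK plus c-Myc overexpression against 1 library labelled OSK overexpression alone, 2 of the 43 mouse poly(A) RNA-seq libraries in the series. The pair was chosen by these labels, not by measured values.

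Both libraries came from an Mbd3f/- cell line at day 4 of reprogramming. Mbd3 encodes a subunit of the NuRD chromatin complex, and Mbd3f/- denotes 1 floxed and 1 deleted allele, a genotype that all 9 libraries of the same expression table share. The other 7 were a library labelled Myc overexpression alone at day 4 in the same line, and 6 libraries of a secondary Mbd3f/- OSK line, whose fibroblasts (MEFs) were taken from chimaeric mice and carry a doxycycline-inducible OSK cassette. These 6 were MEFs with control siRNA (replicates 1 and 2), control siRNA at day 7, siRNA against c-Myc, N-Myc and L-Myc (siMyc) at day 3 and at day 7, and a Myc inhibitor at day 3. How OSK and Myc were delivered in the day 4 lines, and from which species the Myc coding sequence came, were left unstated in the labels.

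With 1 library in each group there was no replicate, so no test was made and sizes are read against the spread between the 2 control MEF libraries, which belong to another line and stage. Nothing states that those 2 came from separate cultures. A difference is written throughout as the level in the library labelled OSK + Myc minus that in the library labelled OSK, on the log2(FPKM + 1) scale, which understates the difference of low genes. FPKM is fragments per kilobase of transcript, scaled to the mapped fragments of the library. A gene counts as higher or lower when the difference is at least 1 log2 unit, that is, a ratio of 2 on the FPKM + 1 scale.

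The level of Myc itself went against the labels. Myc (ENSMUSG00000022346, chromosome 15: 61985391 to 61990374, mm10) was at 24.8 FPKM in the library labelled OSK and at 3.16 in the library labelled OSK + Myc, and it was at 0.510 in the library labelled Myc alone. The other 6 libraries held 30.5 and 26.5 FPKM (control MEFs), 16.2 (control, day 7), 10.99 (siMyc, day 7), 29.2 (siMyc, day 3) and 29.4 (Myc inhibitor, day 3). Both libraries labelled with Myc overexpression were therefore the lowest of the 9 for the mouse Myc gene, with a difference of -2.64 against a difference of 0.20 between the control MEFs. In the separately normalised day course of Mbd3f/- cells with an inducible cassette of all 4 factors, Myc was likewise at 13.0 FPKM in MEFs and 0.0919 at day 4. The FPKM of the mouse gene thus does not show the overexpression that the labels name.

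The OSK factors also differed between the 2 libraries. Pou5f1, the pluripotency factor Oct4, was at 36.1 FPKM in the library labelled OSK and at 2.69 in that labelled OSK + Myc, against 0 listed in the library labelled Myc and in both control MEFs, and 10.2 at day 7 with control siRNA. Sox2, its partner, stood the other way, at 39.6 and 312 FPKM, with 0.821 in the library labelled Myc, 4.73 and 4.24 in the control MEFs and 64.5 at day 7 with control siRNA. Klf4 was at 22.6 and 16.1 FPKM, below the control MEFs at 35.7 and 33.6, and its difference of -0.46 was under the fold. The libraries labelled with OSK thus held more Sox2 than the MEFs, but they did not hold Pou5f1, Sox2 and Klf4 in one proportion, and the difference was 2.95 for Sox2 and -3.33 for Pou5f1.

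**Figure D1:**
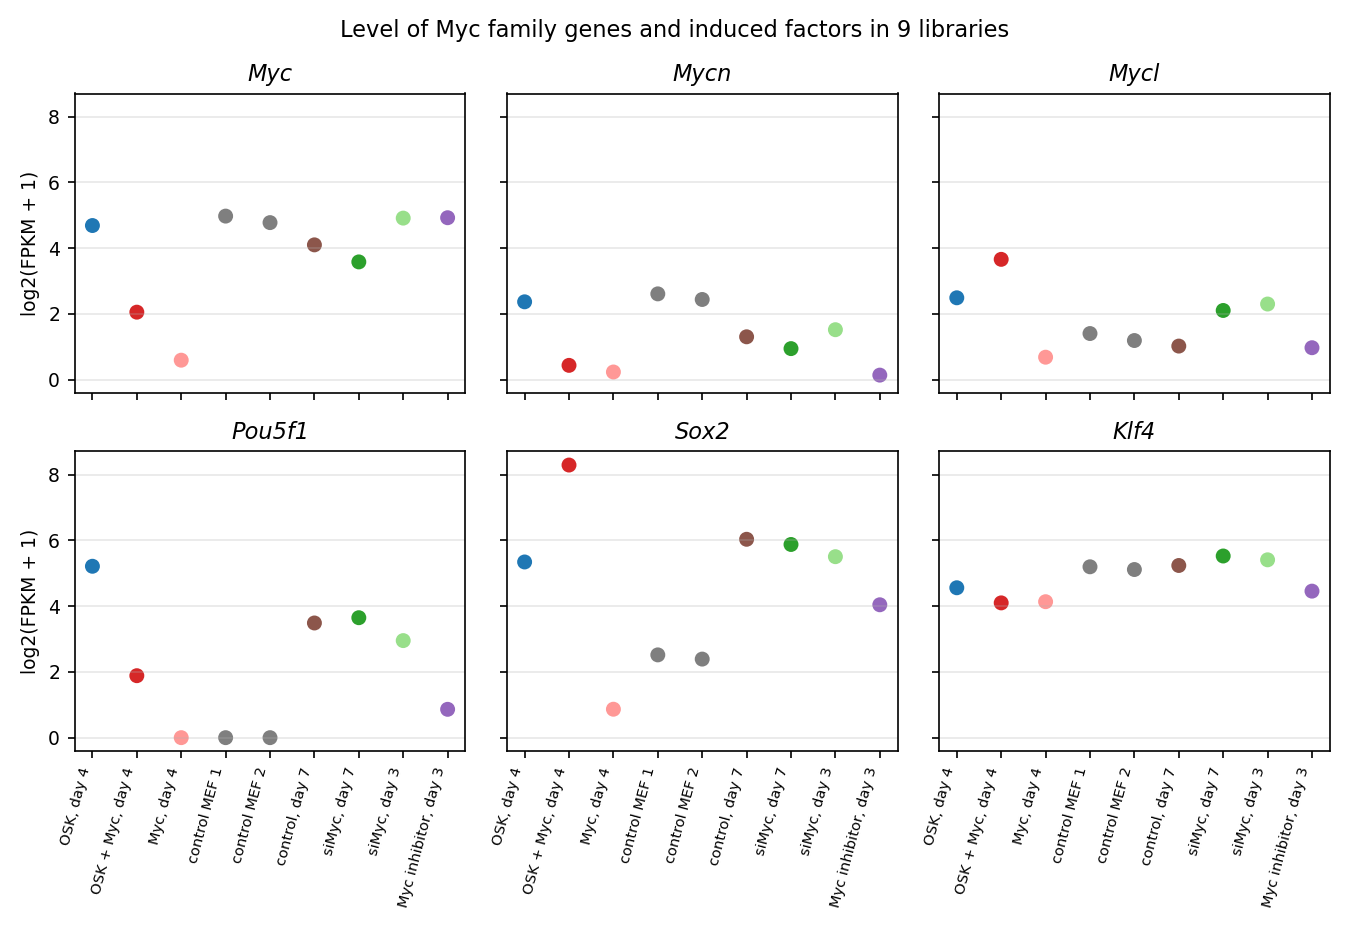
Level of 3 Myc family genes and 3 induced factors, as log2(FPKM + 1), in each of the 9 libraries (1 point per library). Myc is lowest in both libraries labelled with Myc overexpression, at 3.16 and 0.510 FPKM, and Sox2 is highest in the library labelled OSK + Myc, at 312 FPKM.

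Over the whole table, 1920 of 16049 genes compared (FPKM of at least 1 in either library) were higher, 12.0%, and 3119 were lower, 19.4%, together 31.4%. The shares of 12.0% and 19.4% are the background for every count of list members below. Between the 2 control MEF libraries the same rule found 205 genes higher (1.36%) and 236 lower (1.57%) of 15024, 2.94% in all. The median absolute difference was 0.63 log2 units, against 0.11 between the control MEFs. The difference of a gene exceeded its own control MEF difference in 14008 of all 16049 genes compared. That share was 97.8% among the higher and 98.8% among the lower genes. Both sets were selected for a difference of at least 1 log2 unit, which sets such high shares in advance. Quantile normalisation of the 9 libraries moved the split to 2565 higher and 2449 lower, so the excess of lower genes depends on the scaling. It also depends on the class of gene. Of 12259 protein-coding genes 1395 were higher and 1675 lower, and of 3575 genes annotated in other classes 485 were higher and 1391 lower.

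The library labelled OSK stood apart from the other 8. Its correlation with them over 18203 genes, as a description on the log2 scale, ran from 0.764 to 0.830. The Myc inhibitor library also correlated weakly with the other 8, from 0.764 to 0.867. The library labelled OSK + Myc correlated at 0.927 with that labelled Myc, and the control MEFs at 0.963 with each other. Of the 3119 lower genes, 73.0% had their highest level of the 9 libraries in the library labelled OSK, and 15.9% had their lowest in that labelled OSK + Myc. Of the 1920 higher genes, 48.4% were lowest in the library labelled OSK and 32.9% highest in that labelled OSK + Myc. Both sets were selected by the difference between these libraries, which favours such positions in advance. The shares alone therefore do not show that the library labelled OSK stood apart. Among all 16049 genes compared, that library was highest in 27.4% and lowest in 12.5%. The library labelled OSK + Myc was lowest in 1346 of the 16049 and highest in 1611. For many groups of genes below, though not for all, the position among the 9 libraries is given beside the difference.

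Base composition and length moved with the differences as well. In the decile of genes with the highest transcript GC content, 57.7% to 84.2%, 30.4% were higher, against 8.02% to 9.92% in the 6 deciles with the lowest GC. Set against the mean of the control MEFs, the genes of that top decile had a median of -0.49 log2 units in the library labelled OSK and -0.07 in that labelled OSK + Myc. In the decile with the shortest transcripts, up to 448 bases, 46.2% were lower and 21.8% higher, but 22.1% of these genes also passed the fold between the control MEFs. The plot of list medians shows each list also after centring the differences on GC content and length, and the part of either property in the results was not tested.

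**Figure D2:**
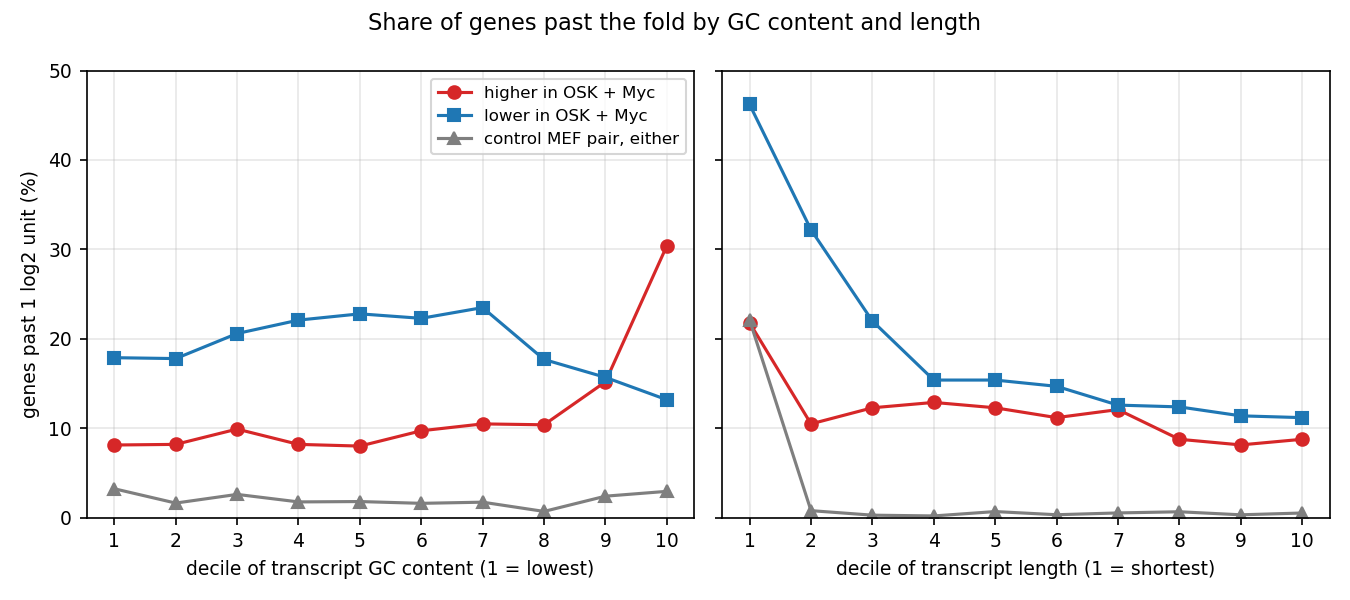
Percentage of genes past 1 log2 unit in each decile of transcript GC content (left) and transcript length (right): higher and lower in the library labelled OSK + Myc, and either way between the 2 control MEFs. The share of higher genes climbs to 30.4% in the decile with the highest GC, and lower genes reach 46.2% among the shortest transcripts.

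Genes of ribosome biogenesis stood higher throughout. All 45 members of the list had a difference above 0, 28 were higher by the fold and 0 were lower, with a median difference of 1.24 against -0.14 over all genes compared and 0.07 for the same list between the control MEFs. The difference exceeded that of the control MEFs in 44 of the 45, against 14008 of all 16049 genes compared. Centring on GC content and length left a median of 1.30. In 44 of the 45 members both libraries labelled with Myc stood above all other 7 libraries, an order found in 13.9% of all genes compared. The median level of the list was 5.47 log2 units in the library labelled OSK, 6.58 in that labelled OSK + Myc and 6.72 in that labelled Myc, and between 4.41 and 4.94 in the other 6, so the library labelled OSK was itself above them.

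Ppan, a factor of large subunit assembly, was at 27.4 FPKM in the library labelled OSK and 149.8 in that labelled OSK + Myc, with 183 in that labelled Myc and 44.4 and 37.7 in the control MEFs. Rrp1b, an rRNA processing protein, was at 16.03 and 85.0 FPKM, with 121 in the library labelled Myc and 18.2 and 16.4 in the control MEFs. Rrp9, which belongs to the U3 small nucleolar particle, was at 41.2 and 176.7 FPKM, with 176.8 in the library labelled Myc and 24.3 and 26.9 in the control MEFs. In all 3 the libraries labelled with Myc lay close together and the other libraries far below. Nhp2 and Nop10, partners in the box H/ACA particle that guides pseudouridylation, were at 104.9 and 377 and at 58.5 and 202 FPKM, and their partner Dkc1 at 53.1 and 175.5. The RNA polymerase I subunits Polr1a and Polr1b differed by 1.55 and 1.57, while Polr1c differed by 0.37. Bop1 and Pes1, partners in the PeBoW complex, differed by 1.92 and 1.70 and Wdr12 of the same complex by 1.13. Smallest in the list were Ubtf, an activator of rRNA transcription, at 52.9 and 56.6 FPKM, and the methyltransferase Fbl at 72.7 and 85.2; Fbl was at 18.5 and 18.4 in the control MEFs.

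**Figure D3:**
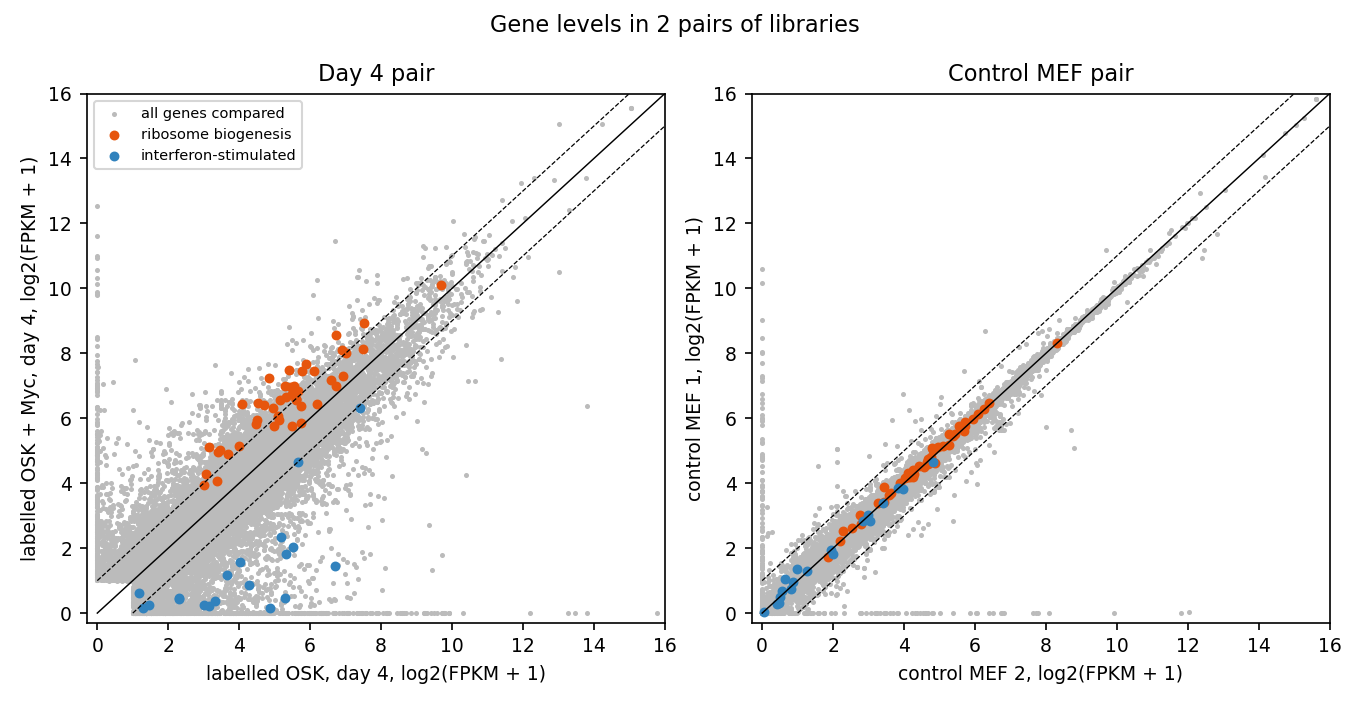
Level of each gene in 2 pairs of libraries, as log2(FPKM + 1): labelled OSK + Myc against labelled OSK (left) and the 2 control MEFs (right), with dashed lines at 1 log2 unit. All 45 ribosome biogenesis genes lie above the diagonal on the left and 18 of 19 interferon-stimulated genes compared lie below the lower dashed line, while both groups follow the diagonal on the right.

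The E-box CACGTG, the sequence that Myc-Max pairs are known to bind, was counted in RefSeq promoter windows of build GRCm38.p6, 250 bases before to 50 after each start. The 6 letters read the same on both strands. They occurred in 9 of 40 ribosome biogenesis windows (22.5%) and in 8 of 29 windows of classical Myc-activated genes (27.6%). The share was 10.4% of the 9399 windows found for genes compared and 7.24% of all promoters. Within ribosome biogenesis the share was 23.1% for the 26 genes higher by the fold and 21.4% for the other 14. Among all higher genes with a window it was 13.1% of 1048, and among lower genes with a window 5.96% of 1259. Higher genes were more frequent at high GC content, and the part of base composition in these shares was not tested. Below are the 100 bases before to 30 after the start for the 3 ribosome biogenesis genes with the largest differences among those whose window holds the letters, shown with the E-box in capitals, and for Cad, which had the largest difference of the classical Myc-activated list. They lie at chr11:82908366-82908495 (minus strand), chr11:3963875-3964004 (plus), chr11:74897980-74898109 (plus) and chr5:31054680-31054809 (plus), and the choice of these windows was made after the values were seen.
Nle1: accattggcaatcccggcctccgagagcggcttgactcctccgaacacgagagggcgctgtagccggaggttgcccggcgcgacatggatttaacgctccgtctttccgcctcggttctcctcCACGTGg
Pes1: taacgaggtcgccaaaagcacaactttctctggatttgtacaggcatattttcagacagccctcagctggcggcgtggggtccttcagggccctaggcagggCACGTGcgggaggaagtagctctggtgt
Tsr1: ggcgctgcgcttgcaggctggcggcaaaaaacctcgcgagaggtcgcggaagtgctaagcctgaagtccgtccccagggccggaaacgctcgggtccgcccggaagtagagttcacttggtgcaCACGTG
Cad: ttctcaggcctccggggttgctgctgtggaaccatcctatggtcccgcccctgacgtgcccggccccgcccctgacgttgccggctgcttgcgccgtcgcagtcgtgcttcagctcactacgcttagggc
The differences of these genes were 1.95 for Nle1, 1.70 for Pes1, 1.43 for Tsr1 and 3.30 for Cad. The windows of Cad, Slc19a1, Ppan and Hk2, which have the 3 largest positive differences and the most negative one among members of both lists with a window, contain no CACGTG within these 300 bases. A match is a description of the letters and not of binding.

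Of 31 classical Myc-activated genes compared, 8 were higher and 2 lower, with a median of 0.57, or 0.78 after centring on GC content and length. Both libraries labelled with Myc stood above the other 7 in 23 of the 31 (74.2%, against 13.9% of all genes compared). Cad, the enzyme that starts pyrimidine synthesis, was at 10.3 FPKM in the library labelled OSK and 109.6 in that labelled OSK + Myc, with 106.6 in that labelled Myc, 16.3 and 17.3 in the control MEFs and 15.0 to 38.5 in the remaining 4. Srm, spermidine synthase, was at 63.5 and 389.9 FPKM with 475 in the library labelled Myc, and Odc1, which opens polyamine synthesis, at 44.0 and 120.1 with 141.4. Slc19a1, the reduced folate carrier, was at 6.07 and 48.6 FPKM, and the mitochondrial chaperonin Hspd1 at 145.7 and 550.6. The libraries labelled with Myc were again the 2 highest for Srm, Odc1, Slc19a1 and Hspd1. Hk2, the glycolytic hexokinase, was the other way round, at 76.4 FPKM in the library labelled OSK with a difference of -1.32, and Cks2, a cyclin-dependent kinase subunit, at 111.1 and 53.4, both highest of the 9 in the library labelled OSK. Several nucleolar genes counted above, such as Ncl and Npm1, are also textbook Myc targets, so both lists describe related genes.

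Nucleotide synthesis genes went both ways. Of 23 genes compared 9 were higher and 4 lower, with a median of 0.43. The purine enzymes Gart (38.8 to 125.6 FPKM), Adsl (45.7 to 108.9) and Atic (58.5 to 121.3) and the phosphoribosyl pyrophosphate synthetase Prps1 (28.6 to 76.8) were higher, and so were Impdh1, which makes the GMP precursor, by 2.29 and the pyrimidine enzyme Dhodh by 2.13. Lower were the S-phase enzymes Tk1 (115.1 to 30.7 FPKM), Tyms (132.5 to 39.1) and Rrm1 (213.2 to 63.0), together with the purine enzyme Paics (391.5 to 138.1). In the library labelled Myc these last 4 were at 66.9, 69.2, 77.8 and 155.6 FPKM, also below the library labelled OSK. One-carbon and serine genes had 5 higher and 5 lower of 19, with Shmt1, the cytosolic serine hydroxymethyltransferase, at 31.04 and 100.4 FPKM and Aldh1l2, a mitochondrial folate enzyme, at 21.6 and 3.55.

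For cytosolic ribosomal proteins the difference did not follow that of the biogenesis genes. Of 46 cytosolic ribosomal protein genes compared 2 were higher and 3 lower, with a median of -0.05 that was 0.15 with GC content and length centred. Both libraries labelled with Myc stood above the other 7 in 21 of the 46 (45.7%, against 13.9% of all genes compared). The library labelled OSK was itself the highest of the 9 in 20 (43.5%, against 27.4%). Rps2 was at 200.5 and 730.3 FPKM and Rplp1 at 901.3 and 2496, whereas Rps20 was at 1764 and 647.6. Ribosomal protein genes have many near-identical pseudogenes, so single members are uncertain. Of 23 mitochondrial ribosome and translation genes 3 were higher and 0 lower (median 0.56), among them Mrpl17 at 153.3 and 381.6 FPKM. Translation factors and tRNA synthetases had 1 higher and 2 lower of 24 (median 0.31), with the elongation factor Eef2 at 633 and 1578 FPKM and the synthetases Cars and Wars at 174.5 and 54.6 and at 140.1 and 53.1.

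**Figure D4:**
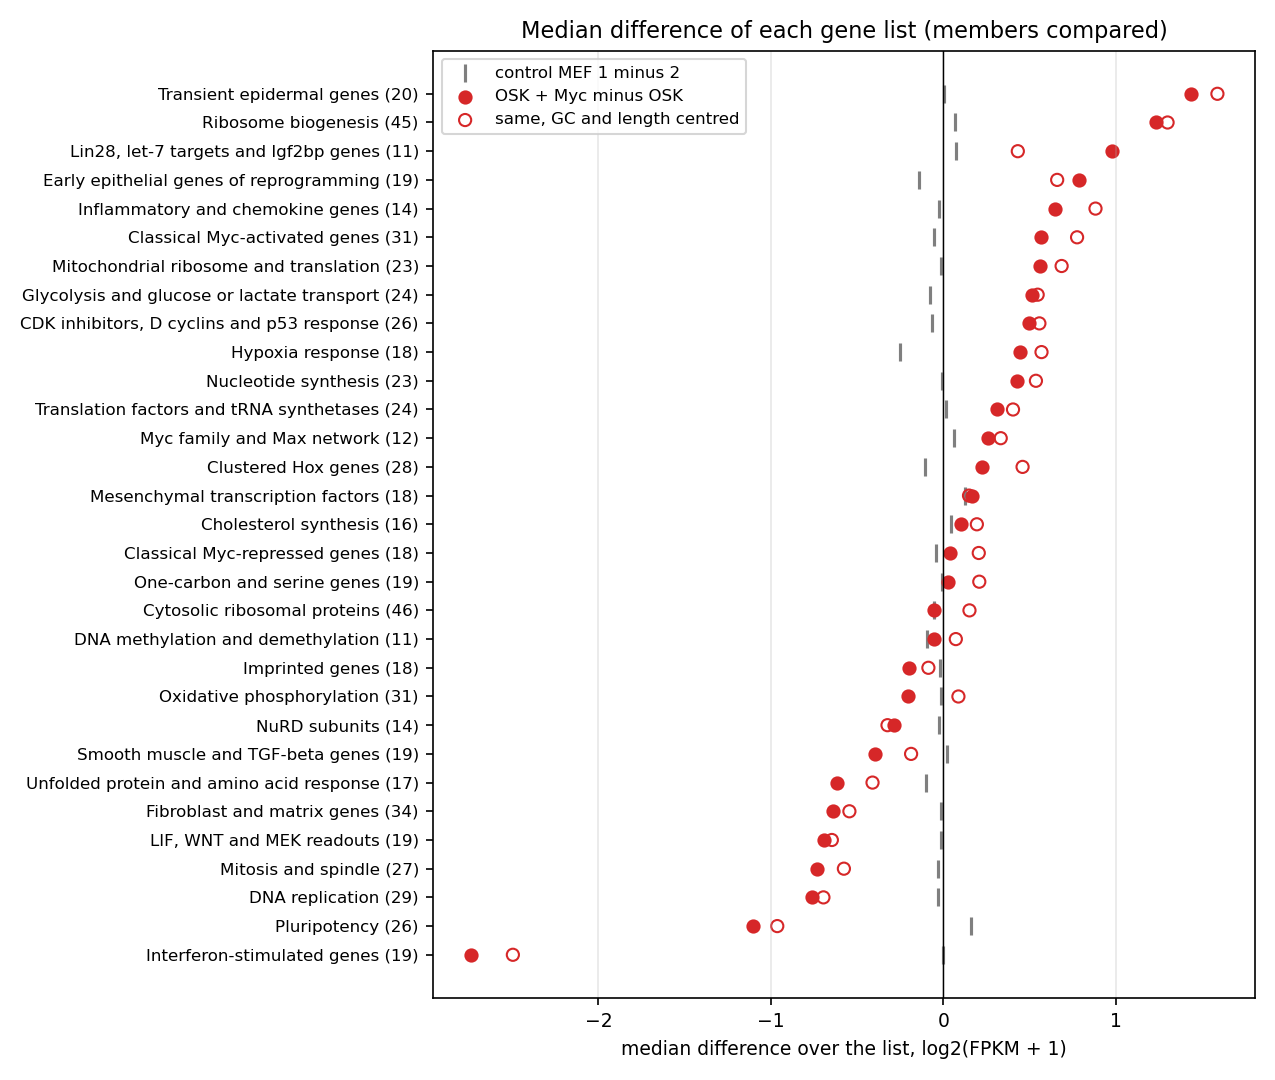
Median difference of each gene list with at least 10 members compared (number in brackets): labelled OSK + Myc minus labelled OSK as computed (filled) and centred on GC content and length (open), with the same list between the control MEFs (grey bars). The histone and interferon GTPase lists, which were added after the values were seen, are not drawn; of the lists drawn, transient epidermal genes (1.44) and ribosome biogenesis (1.24) lie at the top, and pluripotency (-1.10) and interferon-stimulated genes (-2.74) at the bottom.

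The Myc family and its partners gave no single direction. Of 13 genes 12 were compared, 4 were higher and 2 lower. Mycn was at 4.17 FPKM in the library labelled OSK and 0.354 in that labelled OSK + Myc, with 0.177 in that labelled Myc and 5.11 and 4.43 in the control MEFs. Mycl was at 4.63 and 11.7 FPKM, with 0.608 in the library labelled Myc and between 0.964 and 3.93 in the other 6. Mycl was thus the only Myc family gene with its highest level of the 9 in the library labelled OSK + Myc. Max, the shared partner, was at 44.8 and 85.9 FPKM with 72.4 in the library labelled Myc, a difference of 0.93 and under the fold. The Max-binding antagonists Mxi1, Mxd4 and Mnt differed by 1.20, 1.07 and 1.04, Mxd1 by 0.11 and Mxd3 by -0.92. Mga, Mlx and Mlxip differed by 0.33, -0.31 and 0.19, and Mlxipl was at 0.0245 FPKM and listed at 0.

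Classical Myc-repressed genes showed 7 higher and 3 lower of 18, with a median of 0.04, or 0.21 with GC content and length centred. Cdkn1a, the p21 inhibitor of cyclin-dependent kinases, was at 170.1 and 531.2 FPKM, with 352 in the library labelled Myc and 274 and 281.2 in the control MEFs. Cdkn2b was at 8.48 and 21.7 FPKM, both far below the control MEFs at 108.2 and 102.8. Cdkn1b, the p27 inhibitor, was at 26.2 and 6.13 FPKM. Of the 18 genes 3 (16.7%) were lower in both libraries labelled with Myc than in all other 7, against 10.0% of all genes compared. The library labelled OSK was the lowest of the 9 in 7 of the 18 (38.9%, against 12.5%). Largest among the 7 higher genes was the difference of Hist1h2bc, at 17.97 and 139.5 FPKM, a histone gene with the uncertainty given below for that class.

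Most cell cycle genes did not pass the fold. Of 29 DNA replication genes compared 0 were higher and 6 lower (median -0.76), a share of lower genes of 20.7% against 19.4% of all genes compared, and with GC content and length centred 2 were higher and 4 lower. Of 27 mitosis genes 0 were higher and 8 lower (29.6%, median -0.73). The library labelled OSK had the highest level of the 9 in 18 (62.1%) and 19 (70.4%) of them, against 27.4% of all genes compared. Top2a, the mitotic topoisomerase, was at 228.1 and 61.9 FPKM, with 104.7 in the library labelled Myc and 45.8 and 51.9 in the control MEFs. Mki67, a marker of cycling cells, was at 52.0 and 17.0 FPKM, with 24.1 in the library labelled Myc and 12.9 and 13.2 in the control MEFs. The library labelled OSK + Myc was thus lower than that labelled OSK and above the MEFs for both genes. Ccne1 and Ccne2, the E cyclins of S-phase entry, were at 34.9 and 67.9 and at 12.1 and 25.01 FPKM, differences of 0.94 and 0.99.

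Among CDK inhibitors, D cyclins and p53 response genes 11 of 26 were higher and 3 lower (median 0.49). The library labelled OSK was the lowest of the 9 in 10 of the 26 (38.5%, against 12.5% of all genes compared). Bbc3, the apoptosis activator Puma, was at 3.03 FPKM in the library labelled OSK and 51.2 in that labelled OSK + Myc, with 96.3 in that labelled Myc and 24.0 and 28.3 in the control MEFs. Cdkn2a, which encodes p16 and p19Arf, was at 22.5 and 185.7 FPKM, with 213.9 in the library labelled Myc and 189 and 199.9 in the control MEFs. Mdm2, the p53 ubiquitin ligase, was at 43.5 and 273 FPKM, with 236.3 in the library labelled Myc, 79.7 and 74.9 in the control MEFs and 232 with siMyc at day 7. For Bbc3 and Cdkn2a the library labelled OSK was the lowest of the 9, whereas Mdm2 was highest in that labelled OSK + Myc. Trp53inp1 (15.1 to 52.9 FPKM) and Ccng1 (138.3 to 327.2), further p53 targets, were also higher. Cdkn2c and Cdkn2d, inhibitors of the D cyclin kinases, were at 25.5 and 3.20 and at 38.6 and 9.09 FPKM.

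Metabolic genes were mixed. In glycolysis and glucose or lactate transport 6 of 24 were higher and 3 lower (median 0.51). The lactate carrier Slc16a3 was at 47.2 and 317 FPKM, with 375 in the library labelled Myc and 353.3 and 396.3 in the control MEFs, and the library labelled OSK was the lowest of the 9. Slc16a1, the other lactate carrier, was at 13.4 and 43.9 FPKM with 54.1 in the library labelled Myc and 13.9 and 14.1 in the control MEFs. Oxidative phosphorylation had 4 higher and 4 lower of 31 (12.9% each way). Its median of -0.21 was 0.09 after centring on GC content and length, so the sign of that median depends on the centring. The library labelled OSK was the highest of the 9 in 17 of the 31 (54.8%, against 27.4% of all genes compared). Hypoxia genes had 5 higher and 1 lower of 18 (median 0.44), with a control MEF median of -0.25 for the same list. Cholesterol synthesis had 0 higher and 2 lower of 16 (12.5%). The unfolded protein and amino acid response had 2 higher (11.8%) and 4 lower (23.5%) of 17, near the 12.0% and 19.4% of all genes compared. In that list Asns, asparagine synthetase, was at 477.6 and 163.2 FPKM and the stress factor Atf3 at 2.26 and 23.9.

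Interferon-stimulated genes had the most negative median of the lists with 10 or more members, apart from the related set described next. Of 19 compared, 0 were higher and 18 lower, with a median of -2.74, or -2.50 after centring on GC content and length, and -0.0045 between the control MEFs. Isg15, a ubiquitin-like protein induced by interferon, was at 103.9 FPKM in the library labelled OSK and 1.73 in that labelled OSK + Myc, with 0.524 in that labelled Myc, 6.16 and 6.24 in the control MEFs, 32.1 with control siRNA at day 7 and 60.1 with siMyc at day 7. Oasl2, of the oligoadenylate synthetase family, was at 38.1 and 0.370 FPKM, and Rtp4, another interferon-induced gene, at 28.3 and 0.126. In all 3 the library labelled OSK was far above the MEFs and that labelled OSK + Myc was below them. Over the list, both libraries labelled with Myc were below all other 7 in 8 of the 19, against 10.0% of all genes compared, and the library labelled OSK was the highest of the 9 in 5 (26.3%, against 27.4% of all genes compared). The list's median level was 4.02 log2 units in the library labelled OSK, 0.63 in that labelled OSK + Myc, 0.41 in that labelled Myc, 1.35 and 1.25 in the control MEFs, 3.20 with control siRNA and 4.38 with siMyc at day 7. Ifit2, involved in the antiviral response, was the compared gene under the fold, at 1.26 and 0.551 FPKM.

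A further set, interferon-induced GTPases and antigen presentation genes, was put together after the values were seen. It had 0 higher and 23 lower of 24, with a median of -3.88, or -2.42 with a pseudocount of 5. Irgm1, a GTPase of cell-autonomous defence, was at 177 and 2.67 FPKM, and Psmb8, an immunoproteasome subunit, at 28.3 and 0.690. B2m, the light chain of class I molecules, was at 746.2 and 312.2 FPKM, with 650.6 and 653.8 in the control MEFs. The GTPases of the Irgm, Tgtp and Gbp families are close copies, so the split of reads among them is uncertain. Markers of macrophages and blood, cells that could carry such genes, had 2 and 3 of 11 members at 1 FPKM or above, with 4 listed at 0 in each library. Their summed level was 64.4 FPKM in the library labelled OSK, of which Laptm5 gave 59.6, and 28.0 in that labelled OSK + Myc, of which it gave 12.8. The other 10 members summed to 4.82 and 15.2 FPKM, with Cd68 at 3.63 and 12.5, against 57.0 and 70.2 in the control MEFs. Ptprc, the pan-leukocyte marker CD45, was listed at 0 and at 0.0490 FPKM, and Tyrobp at 0 in both. In bulk RNA fewer cells of a type and less RNA per cell cannot be told apart.

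Pluripotency genes stood lower more often than higher. Of 34 in the list 26 were compared, many of them through the library labelled OSK, and 3 were higher and 14 lower (median -1.10). The median was -0.42 over all 34 and -0.64 with a pseudocount of 5. The library labelled OSK was the highest of the 9 in 15 of the 26 (57.7%, against 27.4% of all genes compared). Nanog, a core pluripotency factor, was at 12.5 FPKM in the library labelled OSK and 0.534 in that labelled OSK + Myc, with 0.563 in that labelled Myc, 0.420 and 0.262 in the control MEFs and 1.63 with control siRNA at day 7. Tdgf1, the Nodal co-receptor Cripto, was at 21.3 and 0.163 FPKM, and Fbxo15, an Oct4 and Sox2 target, at 13.7 and 0.351. L1td1, an RNA-binding protein of pluripotent cells, was at 196.8 and 76.1 FPKM, against 0.0526 in the library labelled Myc, and listed at 0 and at 0.0236 in the control MEFs. L1td1 thus stood above the MEFs in both libraries labelled with OSK, whereas Nanog was under 1 FPKM in that labelled OSK + Myc, as in the MEFs. Utf1, a chromatin-associated factor, was listed at 0 in the library labelled OSK and at 8.64 FPKM in that labelled OSK + Myc, and Lin28a, which blocks let-7 maturation, was at 0.234 and 2.77. Lin28b was at 0.0517 and 1.33 FPKM. The late markers Dppa2, Dppa3, Dppa4, Dppa5a, Prdm14 and Esrrb stayed under 0.1 FPKM in both libraries.

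Epithelial and epidermal genes are known to be switched on transiently when fibroblasts are reprogrammed. Of 19 early epithelial genes compared 9 were higher and 0 lower (median 0.79, or 0.45 over all 24 with no filter and 0.48 with a pseudocount of 5). For 10 of the 19 the library labelled OSK + Myc was the highest of the 9, against 1611 of all 16049 genes compared. Krt19, an epithelial keratin, was at 12.7 and 165.5 FPKM, with 53.4 in the library labelled Myc and 63.6 and 72.5 in the control MEFs. Esrp1 and Esrp2, splicing regulators of epithelia, were at 0.0773 and 6.19 and at 0.833 and 21.03 FPKM. Cdh1, the adhesion protein E-cadherin, was at 19.4 and 28.3 FPKM, under the fold, against 0.0867 and 0.0131 in the control MEFs. Of 20 transient epidermal genes compared 13 were higher and 1 lower (median 1.44, or 0.95 over all 26 with no filter and 0.87 with a pseudocount of 5). Krt14, a basal keratin, was at 4.95 and 57.5 FPKM, with 4.47 in the library labelled Myc, 5.13 and 5.79 in the control MEFs and 161.2 with control siRNA at day 7. Krt6a, a keratin of activated epidermis, was at 5.53 and 44.6 FPKM, close to the 45.5 with control siRNA at day 7, and it was listed at 0 in both control MEFs. In 0 of the 20 did both libraries labelled with Myc stand above the other 7, and Trp63, the defining factor of basal keratinocytes, was at 0.0294 and 0.0283 FPKM.

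**Figure D5:**
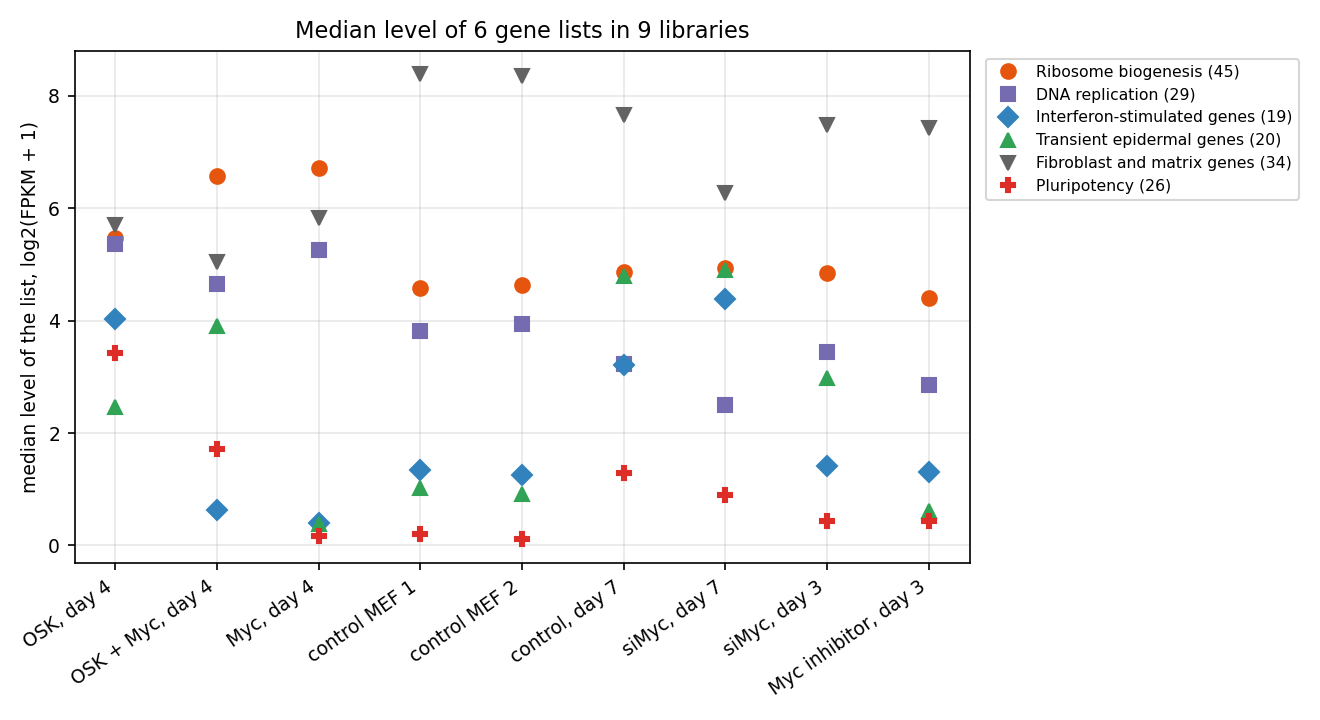
Median level of 6 gene lists, as log2(FPKM + 1), in each of the 9 libraries (number of genes in brackets). Ribosome biogenesis is highest in both libraries labelled with Myc (6.58 and 6.72), and pluripotency genes (3.43) are highest in the library labelled OSK.

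Fibroblast genes were low in both day 4 libraries. The 8 fibroblast markers summed to 578.7 FPKM in the library labelled OSK, 535.9 in that labelled OSK + Myc and 605.8 in that labelled Myc, against 4844 and 5265 in the control MEFs, and none was listed at 0. Of 34 fibroblast and matrix genes 2 were higher and 11 lower (median -0.64, or -0.41 with a pseudocount of 5). Col1a1, collagen I, was at 41.5 and 79.5 FPKM against 1359 and 1572 in the control MEFs. Lum and Mgp, matrix proteins, were at 26.9 and 2.31 and at 278.3 and 26.8 FPKM, while Dlk1, a transmembrane protein related to Notch ligands, was at 3.77 and 45.4, with 345.5 in the library labelled Myc and 768.6 and 739.1 in the control MEFs. Smooth muscle and TGF-beta genes had 2 higher (10.5%) and 4 lower (21.1%) of 19, near the 12.0% and 19.4% of all genes compared. Their median was -0.40, or -0.19 with GC content and length centred, and Ctgf was at 286.5 and 38.9 FPKM. Mesenchymal transcription factors had 2 higher (11.1%) and 3 lower (16.7%) of 18, also near the shares of all genes compared. The 2 higher were Twist2 at 1.47 and 18.9 FPKM and Snai1 at 1.33 and 5.13, both lowest of the 9 in the library labelled OSK. Among the 3 lower were Meox2 at 8.99 and 1.11 FPKM and Msx1 at 5.62 and 0.80.

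Of 19 LIF, WNT and MEK signalling readouts 2 were higher and 9 lower (median -0.69), and over all 23 members, with no filter on low values, the median was -0.42. The ERK feedback genes Dusp6 and Spry4 were at 40.5 and 5.45 and at 28.0 and 4.36 FPKM, and Etv5, an ERK-induced factor, at 88.2 and 18.2. The LIF-Stat3 target Socs3 was at 56.0 and 20.9 FPKM and the WNT target Axin2 at 1.60 and 0.160. Junb, an AP-1 component, stood the other way at 6.11 and 67.0 FPKM, near the control MEFs at 69.7 and 71.2. Of 14 inflammatory genes 3 were higher and 1 lower, among them the prostaglandin synthase Ptgs2 at 2.88 and 23.8 FPKM.

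Imprinted genes of the Dlk1-Dio3 region went in opposite directions. The maternally expressed RNAs Rian and Meg3 were at 258 and 6.27 and at 108.9 and 2.53 FPKM, with 44.2 and 45.0 and 43.2 and 46.6 in the control MEFs. Their neighbour Mirg was at 27.8 and 1.32 FPKM. Of the paternally expressed genes there, Dio3 was at 8.42 and 0.174 FPKM, and Dlk1, given above, was the one that stood higher in the library labelled OSK + Myc. Across the 18 imprinted genes 4 were higher and 7 lower (median -0.20, or -0.09 with GC content and length centred and -0.58 at 5 FPKM or above). NuRD subunits had 0 higher and 2 lower of 14 (14.3%, against 19.4% of all genes compared), with Mbd3 itself at 68.7 and 56.5 FPKM. DNA methylation genes had 0 higher and 2 lower of 11 (18.2%), Tet2 at 11.5 and 4.11 FPKM and Apobec1 at 49.9 and 5.37. Clustered Hox genes had 4 higher and 2 lower of 28, with a median of 0.22 that was -0.74 over the members at 5 FPKM or above and 0.46 with GC content and length centred, led by Hoxc8 at 1.48 and 10.8 FPKM.

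Summed levels of markers of other cell types went both ways. Keratinocyte markers summed to 7.5 and 66.2 FPKM, of which Krt14 gave 4.95 and 57.5, against 8.5 and 8.9 in the control MEFs. Endothelial markers summed to 37.6 and 16.6 FPKM, of which Tek gave 30.6 and 14.7, against 12.1 and 11.4 in the MEFs. Trophoblast markers summed to 9.1 and 17.5 FPKM, against 56.7 and 63.6 in the MEFs. For endoderm markers the sums were 80.6 and 34.9 FPKM, of which Dab2 gave 59.8 and 24.0, against 108.6 and 95.5. Neural markers summed to 36.7 and 51.4 FPKM, against 37.7 and 39.2, and skeletal muscle markers to 2.5 and 7.6, against 85.3 and 85.5. Of the 9 genes of the 2-cell-like list, 8 were listed at 0 in the library labelled OSK and 5 in that labelled OSK + Myc, and 0 reached 1 FPKM. Of 20 germline genes 2 were compared and 1 was higher, Rhox5 at 0.104 and 2.32 FPKM.

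The 10 largest positive differences among genes at 5 FPKM or above were mostly histone genes. Scand1, a SCAN domain protein, came at the top with an estimate of effectively 0 in the library labelled OSK (5.1e-69 FPKM) and 122 FPKM in that labelled OSK + Myc, against 100.8 to 221.6 in the other 7. Then came Hist1h2ap (0.120 and 132.7 FPKM), Hist1h2ao (0.137 and 74.7), Hist1h2aj, Hist1h2an, Hist1h2al, Hist1h2af, Hist1h4h (0.201 and 41.4) and Hist2h2aa2, with differences from 4.99 to 6.90. The other was Sprr1b, a cornified envelope protein listed at 0 and at 33.4 FPKM. Hist1h2aj and Hist1h2al are annotated as pseudogenes. Histone copies are near-identical and share reads, and their RNA is known to lack a poly(A) tail, so their values in poly(A) libraries are uncertain. Over all 62 replication-dependent histone genes compared, a list added after the values were seen, 58 were higher and 0 lower (median 2.35, or 1.24 and 4.01 with pseudocounts of 5 and 0.1). The library labelled OSK was the lowest of the 9 in 48 of them (77.4%, against 12.5% of all genes compared). The Myc inhibitor library had the next lowest median level (1.27 log2 units against 0.28), and the median GC content of these histone genes was 59.4%.

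The 10 most negative differences were Srgn, a secreted proteoglycan (131.3 and 0.413 FPKM), Tgtp1 (100.04 and 0.362), Igtp (94.3 and 0.298), Trh, thyrotropin-releasing hormone (182.5 and 2.27), Ifi47 (62.8 and 0.175), P2rx3, an ATP-gated channel (99.9 and 0.915), Irgm1, Tgtp2 (63.6 and 0.378), Srpx (130.4 and 1.99) and Tac2, a tachykinin precursor (70.2 and 0.640). Of these, 5 are interferon-induced GTPases. P2rx3 was at 0.669 to 1.45 FPKM in the other 7 libraries, so it was the library labelled OSK that stood out, and Trh was at 0 to 3.85 in them. Srpx was at 62.8 and 62.1 FPKM in the control MEFs and 2.38 in the library labelled Myc.

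The siMyc libraries gave a separate pair with no shared library. At day 7, siMyc minus control siRNA, 590 genes were higher (3.84%) and 748 lower (4.87%) of 15359, 8.71% in all, and Myc was at 10.99 and 16.2 FPKM, a difference of -0.52. Ribosome biogenesis had 0 of 45 genes past the fold in either direction, with a median of 0.15, against 28 higher and a median of 1.24 between the library labelled OSK + Myc and that labelled OSK. Interferon-stimulated genes had 8 of 18 higher with siMyc and 0 lower (median 0.87), and the interferon GTPase set 19 of 24 higher (median 2.07). Of the 3119 genes lower in the library labelled OSK + Myc, 2099 could be compared in both pairs, and 124 of them were higher with siMyc, which is 5.91% of the former and 29.8% of the genes higher with siMyc. Lower in both pairs were 212 genes, 10.1% and 37.1%. Of the higher genes 97 were lower with siMyc (5.76% and 17.0%) and 137 were higher (8.14% and 32.9%). For the background of these shares, 14208 genes could be compared in both pairs. Of these 14208, 416 were higher and 571 lower with siMyc, and 1683 were higher and 2099 lower in the day 4 pair.

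In the day course with all 4 factors, the library labelled OSK + Myc correlated most closely with day 2 (0.874 over 18782 genes) and the library labelled OSK did so too (0.794), as a description across genes that are not independent. There, at day 4 against MEFs and within that table, 2876 of 14758 genes were higher (19.5%) and 4098 lower (27.8%), with a median of -0.10 and again 1 library on each side. Of 45 ribosome biogenesis genes 44 were higher and 0 lower (median 2.37), and of 18 interferon-stimulated genes 0 were higher and 16 lower (median -2.27). Ppan was at 15.7 FPKM in those MEFs and 70.4 at day 4, Cad at 7.02 and 72.9, and Isg15 at 47.7 and 0.222.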

How the data were processed

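Poly(A) RNA of mouse cells was sequenced from a TruSeq RNA v2 kit, which does not mark strand, per the labels' protocols. The FPKM values were deposited by the authors, per the file headers 1 column per library; CASAVA 1.8.2, TopHat2 2.0.10, Cufflinks 2.2.1 and mm10 are named in the submitters' processing notes. Values were used as deposited, and the counts behind them are unknown, so no counting interval is given. A listed 0 can be a failed estimate: all 37 mitochondrial genes are at 0 in every library. Of 39007 entries, 41 with a repeated identifier were left out, and 38966 remained. Differences of log2(FPKM + 1) were computed for 16049 genes at 1 FPKM or above in either library, in Python 3.11.15 with pandas 2.3.3 and numpy 2.4.6, and checked on simulated data. Positions, biotypes, GC content and length came from GENCODE M21 (GRCm38, the same assembly as mm10), matched by identifier for 98.7% of these genes, and promoters from RefSeq. Centring set the median difference of 20 GC bins and then of 20 length bins to 0. Named genes were the 10 largest differences each way at 5 FPKM or above that also exceeded the control MEF difference, all induced factors and Myc network genes, and up to 4 members of each list with the largest absolute difference at 5 FPKM or above; other members named were chosen after their values were seen. Members and the 43 lists were chosen with earlier results of these data known. The other 3 expression tables were not used here.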

Additional observations from a re-analysis of the deposited data

How the results depend on the processing

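No test was possible with 1 library a group, and leaving out 1 of the 2 control MEFs leaves no pair. No paired analysis was possible because each group compared holds 1 library. The counts of 1920 higher and 3119 lower genes were within 1.5 times under every other setting run, apart from the following. A pseudocount of 5 gave 1088 and 1727, and the 12259 protein-coding genes alone gave 1675 lower. The ribosome biogenesis median of 1.24 was 1.18 with a pseudocount of 5, 1.38 after quantile normalisation, 1.29 after median ratio scaling and 1.30 with GC and length centred. The interferon median of -2.74 was -3.16 and -1.41 with pseudocounts of 0.1 and 5, -2.61 with no filter, -2.93 at 5 FPKM or above, -2.55 after quantile normalisation, -2.73 after median ratio scaling and -2.50 with GC and length centred. The Myc difference of -2.64 was -2.94 and -1.87 with pseudocounts of 0.1 and 5, -2.43 after quantile normalisation and -2.39 with GC and length centred. Of 140 named genes past the fold, 0 changed sign under the settings run and 115 stayed past it under all of them. Of 11 list medians past the fold, 0 changed sign, but not all stayed past it. The pluripotency median went from -1.10 to -0.42 with no filter, and that of transient epidermal genes from 1.44 to 0.87 with a pseudocount of 5. Keratinocyte, trophoblast and endothelial medians also fell under the fold in some settings. Medians under the fold were less stable in sign: cytosolic ribosomal proteins, oxidative phosphorylation and DNA methylation genes went from -0.05, -0.21 and -0.06 to 0.15, 0.09 and 0.07 with GC and length centred, and Hox genes and mesenchymal factors from 0.22 and 0.17 to -0.74 and -0.05 at 5 FPKM or above. The GC and length centring and the protein-coding subset were chosen after seeing the data. Low genes are limited by the unknown depth.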
